A study of Homo sapiens with 12 samples.

Results

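Described here are 10 genes grouped under the heading of chromatin regulators mutated in T-cell acute lymphoblastic leukemia (T-ALL), though how often each is mutated was not examined. The genes are EZH2, SUZ12, EED, KDM6A, KDM6B, CREBBP, SETD2, DNMT3A, PHF6 and CTCF. They were chosen by symbol, and each of the 10 was found once among the 58243 genes listed for each of 2 cell lines. Both lines, HPB-ALL and KOPTK1, are long-established cultures of human T-ALL. In each line, cells received a lentiviral pLKO.1 vector with an shRNA targeting SHQ1, or targeting GFP in the control, and stayed in 2 μg/ml puromycin for 48 h. Total RNA was depleted of rRNA and sequenced, with 3 libraries for each line and shRNA, 12 in all. SHQ1 is an assembly chaperone of H/ACA small nucleolar ribonucleoproteins, and the study asked what its loss does in T-ALL cells.

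Polycomb repressive complex PRC2, built around EZH2, SUZ12 and EED, methylates histone H3 at lysine K27 and keeps genes silent, whereas KDM6A and KDM6B remove that mark and CREBBP acetylates the same residue at active enhancers. SETD2 writes H3K36 trimethylation over transcribed gene bodies, DNMT3A adds new methyl groups to DNA, PHF6 is a nucleolar and chromatin-bound protein that contacts the NuRD complex, and CTCF anchors chromatin loops together with cohesin. In T-ALL, mutations in many of these genes reduce or abolish their function, and loss of PRC2 or PHF6 is a well-known feature of the disease.

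The libraries are named by the numbers that head their columns, 7 to 12 for HPB-ALL and 1 to 6 for KOPTK1. These numbers match no sample label, so the line of each library was known but not its shRNA. SHQ1 shRNA was therefore not compared with control, and the comparison made was HPB-ALL against KOPTK1, 6 libraries against 6 with both shRNAs in each. Each line was tabulated on its own, so line and table cannot be told apart. Total counts were 36792076 to 42842791 per library in HPB-ALL, 33905452 to 36098045 in libraries 1, 2 and 3, and 22884785 to 25938761 in libraries 4, 5 and 6. Counts of the 10 genes ran from 1040 (EED) to 11242 (SETD2). Nothing in the labels says that replicates came from separate cultures, so p-values measure only the spread between these libraries.

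The KOPTK1 libraries stood apart from each other. On log2 CPM (counts scaled to the library total) over 21495 genes, libraries 1, 2 and 3 correlated with each other at a Pearson's r of 0.995 to 0.997 and with libraries 4, 5 and 6 at 0.979 to 0.983. Libraries 1, 2 and 3 were also nearer to the HPB-ALL libraries (0.963 to 0.972) than libraries 4, 5 and 6 were (0.920 to 0.929). These are correlations across genes, which are not independent replicates. TRIO, a gene picked after its values were seen, had 10.7 to 11.5 RPKM (counts scaled to exon length and library total) in the HPB-ALL libraries, 5.86 to 6.01 in libraries 1, 2 and 3 and 1.31 to 1.40 in libraries 4, 5 and 6. DOCK8, picked likewise, had the opposite order, with at most 1.09 RPKM in HPB-ALL, 22.9 to 24.3 in libraries 1, 2 and 3 and 41.7 to 42.7 in libraries 4, 5 and 6.

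The same intermediate place was found over the genes that differed most. With the mean of libraries 4, 5 and 6 set to 0% and the mean of the HPB-ALL libraries to 100%, the RPKM of 153 genes at least 8-fold higher in HPB-ALL, with a mean of at least 3 RPKM there, lay at a median of 44.5% in library 1, 44.1% in library 2 and 45.4% in library 3. For 325 genes at least 8-fold lower in HPB-ALL, with a mean of at least 3 RPKM in libraries 4, 5 and 6, the medians were 43.8%, 44.2% and 43%. Libraries 1, 2 and 3 all lay between the other libraries for 32.3% of the 27834 genes tested, and for 3 of the 10 regulators: EZH2, SUZ12 and CREBBP. The line difference of each regulator is therefore given with all libraries, without libraries 1, 2 and 3, and without libraries 4, 5 and 6. Whether RNA or libraries of the lines were mixed was not tested here, nor whether the position follows the shRNA. If they were mixed, a line difference over all libraries would not be that between the unmixed lines.

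SHQ1, the target of the knockdown, had 71.5, 72.5 and 71.4 RPKM in libraries 7, 8 and 9 and 47.4, 45.9 and 48.9 in libraries 10, 11 and 12 of HPB-ALL. In KOPTK1 it had 45.4, 44.2 and 45.7 RPKM in libraries 1, 2 and 3 and 41.8, 41.7 and 39.5 in libraries 4, 5 and 6. The lines did not overlap in SHQ1, and no library was assigned to an shRNA from these values.

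All 8 markers of T cells were above 1 RPKM in every library, with a summed level of 1040 to 1114 RPKM in HPB-ALL and 1000 to 1019 in KOPTK1, and CD3D was the most abundant. Within these sums single markers differed in opposite directions, CD2 with 12.8 to 15.0 RPKM in HPB-ALL and 37 to 59.7 in KOPTK1, and ZAP70 with 138 to 163 in HPB-ALL and 64.4 to 106 in KOPTK1. No myeloid, erythroid or epithelial marker reached 1 RPKM in any library. Of 4 fibroblast markers, 3 stayed below 1 RPKM throughout and COL1A1 lay between 0.824 and 1.68. Of 5 B cell markers, 3 stayed below 1 RPKM. Their summed level was 41.3 to 47.4 RPKM in HPB-ALL, 25.2 to 26.0 in libraries 1, 2 and 3 and 7.46 to 9.01 in libraries 4, 5 and 6, nearly all of it from CD79A. Of 8 oncogenes that can mark T-ALL subtypes, TAL1 had 39.3 to 45.6 RPKM in HPB-ALL, 23.7 to 26.4 in libraries 1, 2 and 3 and 12.5 to 12.7 in libraries 4, 5 and 6. LMO1 had 2.5 to 3.43 RPKM in HPB-ALL and 0.270 to 1.77 in KOPTK1, and LMO2 went the other way, with 0.0783 to 0.262 in HPB-ALL and 0.96 to 2.51 in KOPTK1. TLX1, TLX3, HOXA9, LYL1 and NKX2-1 were below 1 RPKM in all 12 libraries. TLX3 had at most 0.0363 RPKM in HPB-ALL and 0.293 in KOPTK1. The names of the lines were taken from the labels, and whether the cells were those lines was not tested. The part of these differences in the results below was not tested.

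Between the lines, all 10 regulators passed the threshold (edgeR quasi-likelihood test, Benjamini-Hochberg adjusted p under 0.05), against 63.9% of the 27834 genes tested and 75.1% of the 8503 tested genes with a mean of at least 10 RPKM, a group added after seeing the data. A call was thus common among all genes. Of the 10, 5 were lower in HPB-ALL (SUZ12, CREBBP, EZH2, KDM6A and SETD2), against 32.6% of tested genes, and 5 were higher (KDM6B, DNMT3A, PHF6, EED and CTCF), against 31.3%. The differences were small, since none of the 10 reached 1.5-fold, which 29.1% of tested genes did while passing the threshold. Among tested genes with at least 10 RPKM, 13.6% did so. For 6 of the 10 the libraries of the lines did not overlap, against 43.8% of tested genes.

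These counts were also taken with part of the KOPTK1 libraries. Since the shRNA of each library was not known, the KOPTK1 libraries kept may all carry the same shRNA, whereas HPB-ALL holds both. Without libraries 1, 2 and 3, 9 of 10 passed (all but EED), against 68.0% of 29554 genes by the edgeR adjusted p. Of these, 4 were higher in HPB-ALL, against 33.8%, and 5 were lower, against 34.2%. None of the 10 reached 1.5-fold, against 39.6%, although SUZ12 (1.47-fold higher in KOPTK1) and CREBBP (1.48-fold) came close. For 9 of 10 the lines did not overlap, against 62.2%. Without libraries 4, 5 and 6, 9 of 10 passed (all but CTCF), against 50.2% of 29276 genes, with 4 higher, against 24.3%, and 5 lower, against 26.0%. None reached 1.5-fold, against 19.7%, and for 6 of 10 the lines did not overlap, against 45.0%.

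**Figure D1:**
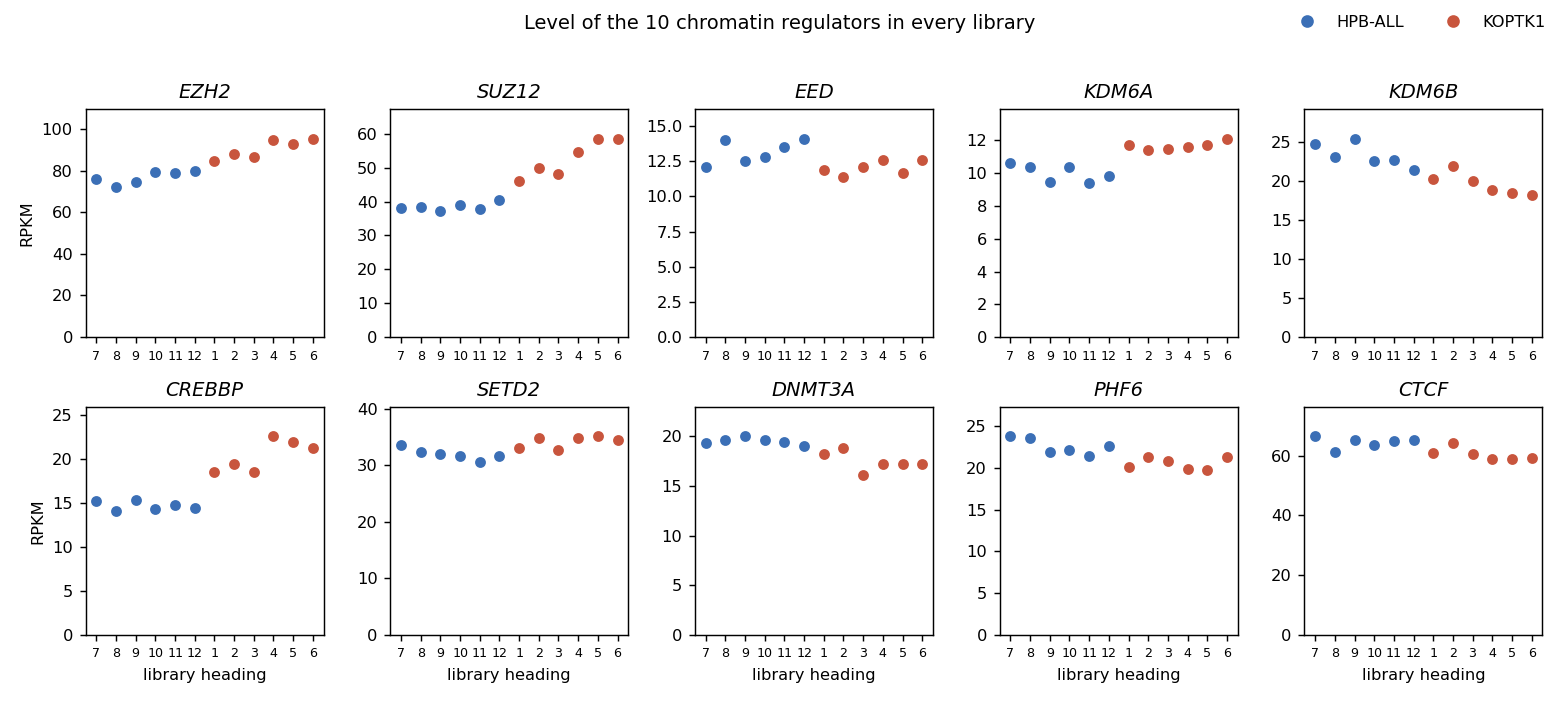
RPKM (y axis, from 0) of the 10 regulators in each of the 12 libraries (x axis, column headings), with 6 HPB-ALL libraries in blue and 6 KOPTK1 libraries in red, 1 point per library. In SUZ12 and CREBBP the HPB-ALL libraries lie lowest, libraries 1, 2 and 3 next and libraries 4, 5 and 6 highest, whereas EED, KDM6B, SETD2 and CTCF overlap between the lines.

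EZH2, the methyltransferase of PRC2 (ENSG00000106462, hg38 chr7:148807384-148884287, minus strand), had the highest level per length of the 10 in both lines. Its lowest, median and highest values were 72.0, 77.4 and 79.9 RPKM in the 6 HPB-ALL libraries and 84.5, 90.5 and 95.2 RPKM in the 6 KOPTK1 libraries. Within HPB-ALL, libraries 10, 11 and 12 were the highest, within KOPTK1 libraries 4, 5 and 6 were, and the lines did not overlap. EZH2 was lower in HPB-ALL by a log2 difference of -0.23 ± 0.04 (SE; 95% interval -0.31 to -0.15, n = 6 per line, edgeR adjusted p = 1.2e-04). The log2 difference was -0.28 without libraries 1, 2 and 3 and -0.18 without libraries 4, 5 and 6.

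SUZ12, the subunit that holds the PRC2 core together (ENSG00000178691, chr17:31937018-32001045, plus strand), had 37.1, 38.2 and 40.4 RPKM as lowest, median and highest in HPB-ALL and 46.2, 52.3 and 58.5 RPKM in KOPTK1. The lines did not overlap, and libraries 4, 5 and 6 were all above libraries 1, 2 and 3. The log2 difference was -0.45 ± 0.06 (SE; 95% interval -0.57 to -0.33, edgeR adjusted p = 1.2e-05), a level 1.37-fold higher in KOPTK1. It was -0.56 without libraries 1, 2 and 3 and -0.33 without libraries 4, 5 and 6, and the 95% intervals of these estimates, -0.62 to -0.49 and -0.40 to -0.26, both excluded 0. The size of the difference thus moved with the KOPTK1 libraries used. SUZ12P1, a pseudogene copy of part of SUZ12, had 17.5 to 20.1 RPKM in HPB-ALL and 23.7 to 34.2 RPKM in KOPTK1, lowest in the HPB-ALL libraries and highest in libraries 4, 5 and 6, and whether reads were exchanged between the gene and the copy was not tested.

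EED, the subunit that binds trimethylated H3K27 (ENSG00000074266, chr11:86244544-86278813, plus strand), had 12.1, 13.2 and 14.1 RPKM as lowest, median and highest in HPB-ALL and 11.4, 12 and 12.6 RPKM in KOPTK1. The lines overlapped, with HPB-ALL libraries 7 and 9 inside the range of KOPTK1. Its log2 difference of 0.13 ± 0.05 (SE) had an edgeR adjusted p of 0.023, and it missed the threshold without libraries 1, 2 and 3 (0.12, adjusted p = 0.056) and when library 1, 2, 8, 11 or 12 alone was left out. Without libraries 4, 5 and 6 it passed (0.15, adjusted p = 0.02). It also missed it with a mean CPM of at least 5 (0.08, adjusted p = 0.16) and with totals over genes of at least 500 bases without mitochondrial genes (0.11, adjusted p = 0.066). Of its exon bases, 1.8% are shared with an overlapping gene on the same strand. EED was thus not lower in HPB-ALL as EZH2 and SUZ12 were, but its own call as higher did not hold in every setting. Per length, SUZ12 had 2.74 to 3.15 times the level of EED in HPB-ALL libraries and 3.87 to 4.97 times in KOPTK1 libraries. EZH2 had 1.88 to 2.09 times the level of SUZ12 in HPB-ALL and 1.59 to 1.83 times in KOPTK1. These ratios and those below were chosen after values were seen and were not tested.

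The promoters of these 3 genes are shown because the genes encode 1 complex and EZH2 and SUZ12 were both lower in HPB-ALL while EED was not. Each runs from 250 bases before to 50 bases after a RefSeq start on GRCh38.p14, in the direction of transcription, and 9 of the 10 genes had such an entry. Where a gene had several windows (2 for EZH2, KDM6B and CREBBP, 6 for DNMT3A), the 1 whose start lay nearest to the gene start in the tables was used. Capitals mark matches on either strand to E2F-type letters (TTTCCCGC, TTTCGCGC, TTTGCCGC or TTTGGCGC) and to the CCAAT box (CCAAT, or ATTGG on the other strand). EZH2 lies at chr7:148884242-148884541 (minus strand), SUZ12 at chr17:31936757-31937056 (plus strand) and EED at chr11:86244503-86244802 (plus strand).
EZH2: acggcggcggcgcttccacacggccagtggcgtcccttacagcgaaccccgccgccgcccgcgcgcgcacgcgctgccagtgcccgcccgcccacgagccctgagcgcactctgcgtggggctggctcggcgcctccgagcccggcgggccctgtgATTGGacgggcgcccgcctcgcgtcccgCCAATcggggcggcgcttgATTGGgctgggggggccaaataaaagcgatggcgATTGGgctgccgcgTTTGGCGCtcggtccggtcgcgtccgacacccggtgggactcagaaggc
SUZ12: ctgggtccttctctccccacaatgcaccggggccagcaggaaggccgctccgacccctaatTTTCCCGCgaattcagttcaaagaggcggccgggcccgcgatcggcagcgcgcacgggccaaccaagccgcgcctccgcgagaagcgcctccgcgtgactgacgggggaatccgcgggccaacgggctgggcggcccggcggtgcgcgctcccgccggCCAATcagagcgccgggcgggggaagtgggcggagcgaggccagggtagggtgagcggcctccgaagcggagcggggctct
EED: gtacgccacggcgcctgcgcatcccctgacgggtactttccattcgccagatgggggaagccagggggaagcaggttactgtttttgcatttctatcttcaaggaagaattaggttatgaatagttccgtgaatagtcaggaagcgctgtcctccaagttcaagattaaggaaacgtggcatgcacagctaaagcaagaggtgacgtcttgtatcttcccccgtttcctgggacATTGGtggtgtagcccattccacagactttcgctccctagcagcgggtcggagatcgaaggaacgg
The EZH2 window held 1 E2F-type match and 4 CCAAT matches, the SUZ12 window 1 of each, and the EED window 1 CCAAT match and no E2F-type match. Among all 35116 promoter windows of the same length, 3.31% held an E2F-type match and 34.6% a CCAAT match. Of the 9 regulators with an entry, 2 had an E2F-type match (EZH2 and SUZ12), 4 had a CCAAT match (EZH2, SUZ12, EED and KDM6A) and 1, KDM6A, had the E-box letters CACGTG, which read the same on both strands and were in 7.26% of all windows. A match describes the letters in a window and is not evidence of binding. GC content was 74.7% in the EZH2 window, 73.0% in that of SUZ12 and 52.3% in that of EED. The RefSeq start used lay 4 bases from the gene start in the tables for EZH2 and 11 for SUZ12, but 209 bases inside the gene for EED, so most of the EED window lies within the gene as tabulated and the windows are not alike in position.

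Of 10 further PRC2 subunits and cofactors, 1 was higher in HPB-ALL, 4 were lower and 5 did not pass, where 31.3% of all tested genes were higher and 32.6% lower, with a median log2 difference of -0.02, the same as the median of -0.02 over all tested genes. EZH1, the paralog of EZH2, had 11.1 to 12.4 RPKM in HPB-ALL and 14.7 to 18.2 RPKM in KOPTK1 (log2 difference -0.48, edgeR adjusted p = 1.1e-05). Per length, EZH2 stood at 6.01 to 7.21 times EZH1 in HPB-ALL and at 5.11 to 6.01 times in KOPTK1. The 2 ranges thus met at 6.01 as rounded here. AEBP2, a cofactor of PRC2.2, was lower in HPB-ALL (log2 difference -0.37, adjusted p = 0.0015), although its libraries overlapped through library 3, at 15.5 RPKM against 20 to 23.5 in the other KOPTK1 libraries. PHF19, a cofactor of PRC2.1, was higher in HPB-ALL (log2 difference 0.23, adjusted p = 4.5e-05). Of 16 subunits of PRC1, the Polycomb complex that ubiquitinates histone H2A, 10 were lower in HPB-ALL (32.6% of all tested genes), 1 was higher (31.3% of all) and 5 did not pass (median log2 difference -0.13). They included BMI1 (-0.35) and CBX2 (-0.28), and the 1 that was higher was CBX6 (0.30). Without libraries 4, 5 and 6, 6 of the 16 were lower, against 26.0% of all tested genes.

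**Figure D2:**
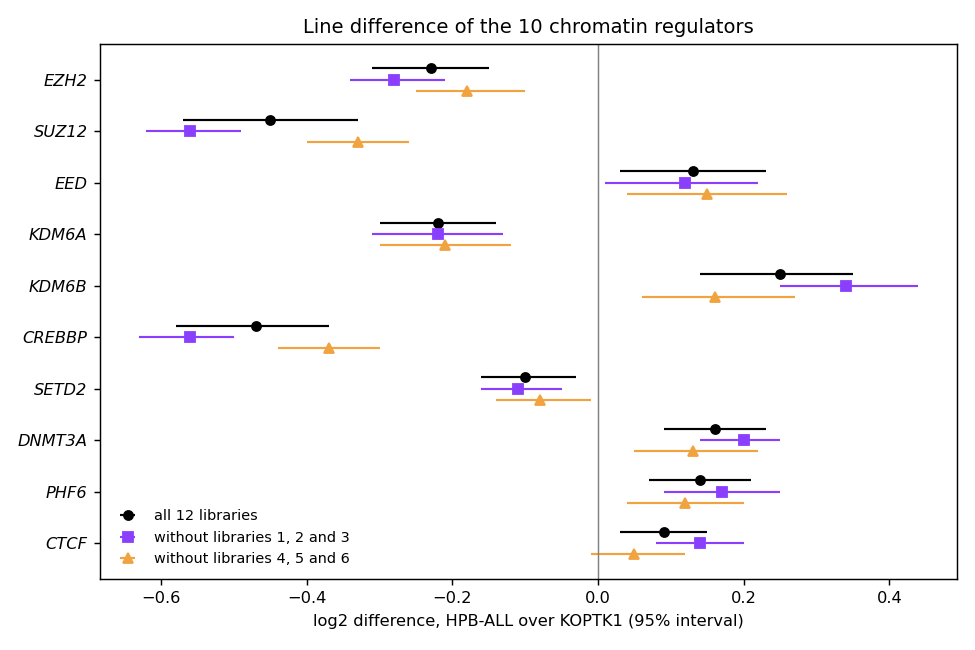
Log2 difference of HPB-ALL over KOPTK1 (x axis) for the 10 regulators (y axis) from edgeR, with 95% intervals as bars, using all 12 libraries (black circles), without libraries 1, 2 and 3 (purple squares) and without libraries 4, 5 and 6 (orange triangles). Signs are the same in all 3 sets, SUZ12 (-0.45 with all libraries) and CREBBP (-0.47) lie farthest from 0, and the interval of CTCF includes 0 without libraries 4, 5 and 6.

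The pair of H3K27 demethylases differed in opposite directions. KDM6A, the X-linked demethylase that works within a COMPASS complex (ENSG00000147050, chrX:44873177-45112602, plus strand), had 9.39, 10.1 and 10.6 RPKM as lowest, median and highest in HPB-ALL and 11.4, 11.6 and 12.1 RPKM in KOPTK1. The lines did not overlap, and the KOPTK1 libraries lay close together. The log2 difference was -0.22 ± 0.04 (SE; 95% interval -0.30 to -0.14, edgeR adjusted p = 1.3e-04), -0.22 without libraries 1, 2 and 3 and -0.21 without libraries 4, 5 and 6. KDM6A thus differed by nearly the same amount whichever KOPTK1 libraries were used.

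KDM6B, the inducible demethylase (ENSG00000132510, chr17:7839904-7854796, plus strand), had 21.4, 22.9 and 25.4 RPKM as lowest, median and highest in HPB-ALL and 18.2, 19.4 and 21.9 RPKM in KOPTK1. Library 2 of KOPTK1 lay above library 12 of HPB-ALL, so the lines overlapped. Its log2 difference was 0.25 ± 0.05 (SE; 95% interval 0.14 to 0.35, edgeR adjusted p = 7.6e-04), 0.34 without libraries 1, 2 and 3 and 0.16 without libraries 4, 5 and 6. Per length, KDM6B had 2.17 to 2.68 times the level of KDM6A in HPB-ALL libraries and 1.51 to 1.92 times in KOPTK1 libraries, with no overlap. Of 9 COMPASS partners of KDM6A, 5 were lower in HPB-ALL (32.6% of all tested genes), 3 were higher (31.3% of all) and 1 did not pass (median log2 difference -0.33). NCOA6 had 13 to 14.7 RPKM in HPB-ALL and 22.0 to 29.5 in KOPTK1 (log2 difference -0.89, edgeR adjusted p = 3.8e-07). KMT2C, an H3K4 methyltransferase of the same complex, had 21.6 to 24.1 RPKM in HPB-ALL and 33.1 to 41.5 in KOPTK1 (-0.71, adjusted p = 5.5e-07). PAGR1 (0.27) and WDR5 (0.21) were higher in HPB-ALL.

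CREBBP, the acetyltransferase (ENSG00000005339, chr16:3725054-3880726, minus strand), had 14.1, 14.6 and 15.3 RPKM as lowest, median and highest in HPB-ALL and 18.5, 20.4 and 22.6 RPKM in KOPTK1. The lines did not overlap, and within KOPTK1 libraries 4, 5 and 6 were all above libraries 1, 2 and 3. Its log2 difference, the farthest from 0 among the 10, was -0.47 ± 0.05 (SE; 95% interval -0.58 to -0.37, edgeR adjusted p = 3.2e-06), a level 1.39-fold higher in KOPTK1. It was -0.56 without libraries 1, 2 and 3 and -0.37 without libraries 4, 5 and 6. EP300, the paralog of CREBBP, differed in the other direction, with 25.6 to 27.7 RPKM in HPB-ALL and 21.6 to 24 in KOPTK1 (log2 difference 0.21, adjusted p = 1.3e-04). The ratio of CREBBP to EP300, per length, was therefore 0.528 to 0.569 in HPB-ALL libraries, 0.772 to 0.815 in libraries 1, 2 and 3 and 0.982 to 1.01 in libraries 4, 5 and 6.

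EP300 was the 1 gene of 8 acetyltransferases and bromodomain readers that was higher in HPB-ALL, and the other 7 were lower (median log2 difference -0.34), where 31.3% of all tested genes were higher and 32.6% lower. The paralogs KAT6A and KAT6B, which acetylate histone H3, had log2 differences of -0.75 (edgeR adjusted p = 9.8e-07) and -0.62 (adjusted p = 2.4e-06). These counts, 1 higher and 7 lower, were the same without libraries 1, 2 and 3, where 33.8% of all tested genes were higher and 34.2% lower, and without libraries 4, 5 and 6, where 24.3% were higher and 26.0% lower.

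SETD2 (ENSG00000181555, chr3:47016689-47163967, minus strand) had 30.6, 31.9 and 33.5 RPKM as lowest, median and highest in HPB-ALL and 32.7, 34.6 and 35.1 RPKM in KOPTK1. Library 7 of HPB-ALL lay above libraries 1 and 3 of KOPTK1, so the lines overlapped. The log2 difference was -0.10 ± 0.03 (SE; 95% interval -0.16 to -0.03, edgeR adjusted p = 0.0099), and with no filter on low counts it was -0.04 and missed the threshold (adjusted p = 0.31). It was -0.11 without libraries 1, 2 and 3 and -0.08 without libraries 4, 5 and 6, where the edgeR adjusted p was 0.049. Of 8 other genes of H3K36 methylation, 6 were lower in HPB-ALL (32.6% of all tested genes), none was higher (31.3% of all) and 2 did not pass (median log2 difference -0.20). The methyltransferases NSD3 (-0.53, adjusted p = 1.5e-06) and ASH1L (-0.35, adjusted p = 3.5e-05) differed most.

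DNMT3A (ENSG00000119772, chr2:25227855-25342590, minus strand) had 19.0, 19.5 and 20 RPKM as lowest, median and highest in HPB-ALL and 16.1, 17.2 and 18.8 RPKM in KOPTK1. The lines did not overlap, and library 3 was the lowest of KOPTK1. The log2 difference was 0.16 ± 0.03 (SE; 95% interval 0.09 to 0.23, edgeR adjusted p = 9.9e-04), 0.20 without libraries 1, 2 and 3 and 0.13 without libraries 4, 5 and 6. DNMT3B, the other de novo DNA methyltransferase, differed in the opposite direction, with 7.80 to 9.20 RPKM in HPB-ALL and 10.7 to 13.6 in KOPTK1 (log2 difference -0.49, adjusted p = 2.9e-05).

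Among 8 genes of DNA methylation and its removal, DNMT3B included, 3 were higher in HPB-ALL, 3 were lower and 2 did not pass (median log2 difference 0.04), close to the 31.3% higher and 32.6% lower of all tested genes. TET1 and TET2, which oxidize methylcytosine, had log2 differences of -0.54 (edgeR adjusted p = 1.6e-06) and 0.44 (adjusted p = 4.5e-04). IDH1, which makes a co-substrate of the TET enzymes, was higher in HPB-ALL (0.81, edgeR adjusted p = 3.7e-05). It had 16.8 to 17.6 RPKM in libraries 7, 8 and 9 but 12.4 to 12.9 in libraries 10, 11 and 12 of HPB-ALL. In KOPTK1 it had 9.31 to 9.96 RPKM in libraries 1, 2 and 3 and 7.24 to 7.41 in libraries 4, 5 and 6.

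PHF6, on the X chromosome (ENSG00000156531, chrX:134373253-134428791, plus strand), had 21.4, 22.4 and 23.8 RPKM as lowest, median and highest in HPB-ALL and 19.8, 20.4 and 21.3 RPKM in KOPTK1. The highest libraries of HPB-ALL were 7 and 8, and the lines did not overlap, by a narrow gap. The log2 difference was 0.14 ± 0.03 (SE; 95% interval 0.07 to 0.21, edgeR adjusted p = 0.0026), 0.17 without libraries 1, 2 and 3 and 0.12 without libraries 4, 5 and 6. With a mean CPM of at least 5 it was 0.09 and still passed (edgeR adjusted p = 0.022). Of 11 NuRD subunits, 6 were higher in HPB-ALL (31.3% of all tested genes), 2 were lower (32.6% of all) and 3 did not pass (median log2 difference 0.09). Without libraries 1, 2 and 3, 7 were higher, against 33.8% of all, and without libraries 4, 5 and 6, 4 were higher, against 24.3%. The lower ones were GATAD2B, with 14.8 to 15.3 RPKM in HPB-ALL and 24.7 to 34.4 in KOPTK1 (edgeR adjusted p = 3.1e-07), a level 2.00-fold higher in KOPTK1, and MTA3 (-0.81, adjusted p = 2.2e-07). CHD3 (0.40) and GATAD2A (0.29), the paralog of GATAD2B, were the highest in HPB-ALL relative to KOPTK1.

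CTCF (ENSG00000102974, chr16:67562407-67639183, plus strand) had 61.2, 64.9 and 66.4 RPKM as lowest, median and highest in HPB-ALL and 58.9, 59.8 and 64.3 RPKM in KOPTK1. Libraries 8 and 10 of HPB-ALL and library 2 of KOPTK1 lay inside the range of the other line. In the test as reported, with all libraries, the log2 difference of CTCF was the nearest to 0 among the 10, at 0.09 ± 0.03 (SE; edgeR adjusted p = 0.016). It missed the threshold without libraries 4, 5 and 6 (0.05, 95% interval -0.01 to 0.12, adjusted p = 0.19). Without libraries 1, 2 and 3 it was 0.14 (adjusted p = 1.8e-04). It also missed it with a mean CPM of at least 5 (0.04, adjusted p = 0.21) and with totals over genes of at least 500 bases without mitochondrial genes (0.07, adjusted p = 0.057). Of 9 cohesin and loop factors tested, 6 were lower in HPB-ALL (32.6% of all tested genes), 1 was higher (31.3% of all) and 2 did not pass (median log2 difference -0.22). The cohesin subunit SMC3 had 34.2 to 37.4 RPKM in HPB-ALL and 46.5 to 57.9 in KOPTK1 (-0.55, adjusted p = 3.1e-06), PDS5A was at -0.33 and STAG1 at 0.15. CTCFL, the germline paralog of CTCF, was below the filter on low counts, with at most 0.194 RPKM, in library 3.

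**Figure D3:**
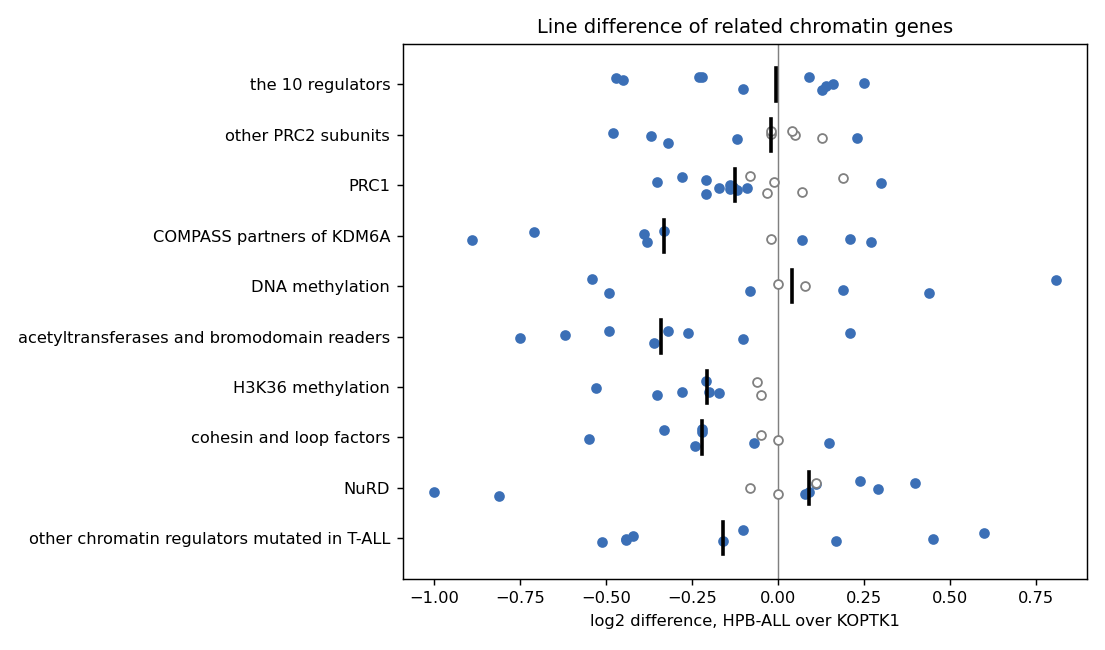
Log2 difference of HPB-ALL over KOPTK1 (x axis) for the 10 regulators and for 9 lists of related genes (y axis), 1 point per tested gene, filled where the edgeR adjusted p was under 0.05, with the median of each list as a black bar. Points are spread vertically for legibility, and the medians run from -0.34 for acetyltransferases and bromodomain readers to 0.09 for NuRD.

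Of 9 other genes listed under the same heading, 3 were higher in HPB-ALL (31.3% of all tested genes) and 6 were lower (32.6% of all), with a median log2 difference of -0.16. The deubiquitinases BAP1 (0.60, edgeR adjusted p = 1.4e-05) and USP7 (0.45, adjusted p = 2.3e-04) were higher, and ASXL1, a partner of BAP1, was lower (-0.51, adjusted p = 2.1e-06), as was HDAC7 (-0.44, adjusted p = 1.1e-05). BAP1 had 50.5 to 58.4 RPKM in HPB-ALL, 40.0 to 41.2 in libraries 1, 2 and 3 and 31.1 to 31.9 in libraries 4, 5 and 6. Over the 88 tested genes of the 9 lists, 19 were higher in HPB-ALL (31.3% of all tested genes), 49 were lower (32.6% of all) and 20 did not pass, with a median log2 difference of -0.11 beside -0.02 over all tested genes. Without libraries 1, 2 and 3, 23 of 89 tested were higher (33.8% of all) and 49 were lower (34.2%), and without libraries 4, 5 and 6, 16 of 88 were higher (24.3% of all) and 43 were lower (26.0%). Every gene named from these lists and tested had the same sign and passed the threshold in both cases, but sizes moved. Without libraries 1, 2 and 3 and without libraries 4, 5 and 6, respectively, the log2 differences were 0.68 and 0.25 for TET2, 0.67 and 0.27 for USP7, 0.46 and 0.17 for CBX6, 0.44 and 0.16 for GATAD2A, 0.30 and 0.14 for WDR5 and -0.52 and -0.20 for AEBP2.

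Ordered by mean RPKM, the 10 regulators stood in HPB-ALL as EZH2 (76.8), CTCF (64.4), SUZ12 (38.4), SETD2 (32.0), KDM6B (23.3), PHF6 (22.6), DNMT3A (19.5), CREBBP (14.7), EED (13.2) and KDM6A (10). Neighbors in this order did not overlap between libraries, except KDM6B and PHF6. In KOPTK1 the first 4 kept their places, at 90.3, 60.5, 52.6 and 34.2 RPKM. They were followed by PHF6, CREBBP, KDM6B and DNMT3A, between 20.5 and 17.4 RPKM, each overlapping its neighbor, and by EED (12.1) and KDM6A (11.6), which also overlapped. The place of CREBBP in KOPTK1 depended on the libraries used: its mean of 22.0 RPKM without libraries 1, 2 and 3 lay above that of PHF6 (20.3), and its mean of 18.9 RPKM without libraries 4, 5 and 6 lay below those of PHF6 and KDM6B (20.7 each).

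The exact permutation test of log2 CPM (two-sided, 6 libraries against 6) gave p = 0.0022, the smallest possible with 6 libraries against 6, for the 6 genes whose lines did not overlap. The same exact permutation test gave p = 0.0043 for KDM6B, 0.0065 for SETD2, 0.011 for CTCF and 0.022 for EED.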

How the data were processed

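RNA-Seq of 12 libraries from 2 cell lines was analysed from 1 table per line. Per the submitters' processing notes, the tools were Trimmomatic 0.36, STAR 2.5.4b, Picard 2.18.7, featureCounts 1.6.2 and edgeR 3.22.3 on hg38. The deposited values were estimated counts per gene, not whole where reads were shared. They were not normalized by the authors, and strand use in counting is not given in the sources used here. The design allowed for normalized values, and the values being counts, the count test was used. The 5 columns of the authors' own comparison in each table (fold change, mean level, F, p-value and FDR) were not used. Each column was assigned to a line because the description of that line's samples names its table.

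Counts were rounded and fitted with the quasi-likelihood test of edgeR 4.0.16 (TMM, filterByExpr) in R 4.3.3, and p-values were adjusted over all 27834 tested genes by the Benjamini-Hochberg method, with a threshold of 0.05. RPKM used TMM-scaled totals and the exon length of the tables. The exact permutation test used log2(CPM + 0.5), with p-values not adjusted, although an adjustment over the 10 genes had been planned. The code was tested on simulated data. Symbols matched 95.9% of identifiers, and 45 empty duplicates on chromosome Y were left out. Alternatives were limma 3.58.1, DESeq2 1.42.0, other filters and scalings, and leaving out libraries. The steps also used Python 3.11.15, pandas 2.3.3 and scipy 1.17.1. Named genes were the 10 regulators, SHQ1 and, from each list, up to 2 with the largest positive and 2 with the largest negative difference past the threshold, and those below the filter. Members and lists were chosen with earlier results of these data known.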

Additional observations from a re-analysis of the deposited data

How the results depend on the processing

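Over 24 alternatives for each of the 10 regulators, 228 of 240 values had an unchanged sign and call, 12 had an unchanged sign but missed the threshold, and 0 reversed. With a mean CPM of at least 5, EED was at a log2 difference of 0.08 and CTCF at 0.04, and with totals over genes of at least 500 bases without mitochondrial genes they were at 0.11 and 0.07, and neither passed the threshold in either case. SETD2 missed it with no filter (-0.04). Without libraries 1, 2 and 3, an alternative chosen after seeing the data, EED missed it at 0.12, and without libraries 4, 5 and 6, also chosen after seeing the data, CTCF missed it at 0.05. The log2 differences of all 10 regulators moved together, up with no filter and down with a mean CPM of at least 5. With no filter, as reported and with that minimum, they were 0.14, 0.09 and 0.04 for CTCF. For SETD2 they were -0.04, -0.10 and -0.15, and for SUZ12 -0.40, -0.45 and -0.51. Each standard error comes from 1 fit and does not include such shifts. The causes were not tested. In leave-one-out fits EED ranged from 0.10 to 0.15 and missed the threshold without library 1, 2, 8, 11 or 12, so that 9 to 10 regulators passed. The number of all tested genes past the threshold ranged from 16926 to 18346 in these fits. It was 17775 in the test as reported, 10821 with a mean CPM of at least 5, where 13992 genes were tested, and 8104 with at least 1.5-fold, where 0 of the 10 regulators passed (0 also by edgeR's unadjusted p under 0.05). All 744 values of SHQ1 and the 30 tested genes named from the lists kept their direction and their call, and the marker and example genes were not run. The alternatives for SHQ1 shRNA against control were not run, since no column was matched to an shRNA. No paired analysis was possible because the columns carry no replicate number. Depth was lowest in libraries 4, 5 and 6, and the smallest count of the 10 regulators was 1040.

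Limits were these. The line comparison sets 1 line against 1 other, each tabulated on its own, so line, table and any handling that went with them cannot be told apart. Both shRNAs stand in each group of 6, and their share in any difference was not tested. KOPTK1 libraries 1, 2 and 3 lay between the other libraries for 3 of the 10 regulators, and the size of several line differences, such as those of SUZ12 and CREBBP, moved with the libraries used. Whether RNA or libraries of the lines were mixed was not tested. The labels do not say whether replicates were separate cultures. Protein, mutations and histone marks were not measured, and the mutation status of the 10 genes in these lines was not examined.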

Other observations

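The low summed levels of the epithelial, myeloid and fibroblast markers were highest in library 3 of KOPTK1. The 4 epithelial markers summed to 1.06 RPKM there and to 0.323 to 0.550 in the other 11 libraries, and the 5 myeloid markers to 2.01 RPKM there and to 0.986 to 1.26 elsewhere. COL1A2 had 0.368 RPKM in library 3 and at most 0.0285 in any other library. The erythroid markers were highest in library 4, at 0.882 RPKM against 0.677 in library 3. The cause was not tested.

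MTAP, a gene of methionine salvage picked after its values were seen, had at most 0.0182 RPKM in libraries 7, 8 and 9 and 0.248 to 0.265 RPKM in libraries 10, 11 and 12, with 5.74 to 5.99 in libraries 1, 2 and 3 and 9.29 to 10.1 in libraries 4, 5 and 6. DOCK8 had at most 0.0672 RPKM in libraries 7, 8 and 9 and 0.808 to 1.09 RPKM in libraries 10, 11 and 12. Whether RNA of the lines was mixed was not tested. The share of counts from mitochondrial genes was 1.26% to 1.44% in HPB-ALL, 1.74% to 1.91% in libraries 1, 2 and 3 and 2.25% to 2.37% in libraries 4, 5 and 6.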
